A study of Mus musculus with 8 samples.

Results

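The genes described here are 10 factors and markers of the epithelial-mesenchymal transition, namely the transcription factors Snai1, Snai2, Twist1, Twist2, Zeb1 and Prrx1 and the markers Vim, Cdh2, Cdh11 and S100a4. They were chosen by name, and each was matched to an array row that carries 1 gene symbol in the platform annotation. A gene with several such rows is given by its brightest one, judged by the mean of all 8 arrays. All 10 were measured, out of 22180 genes with a row of 1 symbol. RNA was taken from intact MMTV-PyMT tumors of the mammary gland, in mice congenic on FVB/NJ and 3 to 4 months old, at inguinal and thoracic sites. All 8 tumors carried the PyMT oncogene, which the MMTV promoter drives in mammary epithelium, and floxed Mmp14 alleles (f/f). The 4 conditional knockout tumors (cKO) also carried MMTV-Cre, and the 4 littermate tumors called wild type (WT) had the floxed alleles without it, so the groups differ both in Cre and in the targeted gene. The same promoter directs Cre to mammary epithelium, and which cells of these tumors lost Mmp14 was not measured. Each tumor was hybridised to 1 Affymetrix array. The labels call the tumors biological replicates and do not tie each to an animal, so p-values here measure the spread between these tumors.

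In the epithelial-mesenchymal transition, epithelial cells lose their junctions and gain the shape and motility of mesenchymal cells. Factors of the Snail, Twist and Zeb families drive it, and Snail and Zeb proteins do so in part by binding E-box sequences in epithelial genes such as E-cadherin and repressing them. The same factors and the markers vimentin, N-cadherin, cadherin-11 and S100a4 are also made by fibroblasts and other stromal cells. In RNA from a whole tumor they therefore come from an unknown mixture of carcinoma and stroma. Pdgfra, a receptor of fibroblasts, and Pdgfrb, a receptor of pericytes and fibroblasts, were measured beside them in the same tumors.

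The E-box to which Snail and Zeb proteins bind is shown in the promoters of Snai1, one of the factors, and of Epcam and Crb3, epithelial surface and polarity genes whose levels are given below, chosen among the epithelial genes whose window holds the motif more than once. Each is the 250 bases before the RefSeq start on GRCm38.p6, plus strand, with the letters CAGGTG, or CACCTG where the motif lies on the other strand, in capitals. The positions are chr2:167537945-167538194 for Snai1, chr17:87635729-87635978 for Epcam and chr17:57061951-57062200 for Crb3.
Snai1: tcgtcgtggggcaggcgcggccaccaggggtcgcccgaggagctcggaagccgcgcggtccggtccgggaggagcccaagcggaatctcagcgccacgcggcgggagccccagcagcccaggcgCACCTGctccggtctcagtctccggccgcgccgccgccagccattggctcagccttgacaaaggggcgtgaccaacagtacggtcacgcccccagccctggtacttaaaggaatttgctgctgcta
Epcam: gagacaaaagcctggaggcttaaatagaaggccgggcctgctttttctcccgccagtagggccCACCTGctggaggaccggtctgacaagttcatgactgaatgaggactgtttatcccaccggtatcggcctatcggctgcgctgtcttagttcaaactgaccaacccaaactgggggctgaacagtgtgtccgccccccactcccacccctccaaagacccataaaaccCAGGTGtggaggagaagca
Crb3: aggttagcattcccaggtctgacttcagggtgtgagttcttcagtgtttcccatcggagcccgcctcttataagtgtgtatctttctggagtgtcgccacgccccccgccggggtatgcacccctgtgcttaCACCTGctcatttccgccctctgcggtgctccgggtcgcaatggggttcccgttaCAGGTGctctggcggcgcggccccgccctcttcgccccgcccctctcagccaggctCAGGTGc

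The motif occurs once in the Snai1 window, 2 times in that of Epcam and 3 times in that of Crb3. Of all 32851 promoters in the RefSeq table, 17.2% hold it in a window of this length. Among 16 epithelial genes of the kind that Snail and Zeb factors repress, 13 have a promoter in the table, and 9 of their 16 promoters hold the motif. Of the members, 6 have a promoter in the table, and only that of Snai1 holds it. A match of letters describes the sequence and does not show a bound factor.

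The array values are log2 signals, with medians between 3.64 and 3.71 across the 8 arrays, and any pair of arrays correlated over all rows with r between 0.976 and 0.989. Mmp14, the targeted protease gene, checks the labels: it was between 8.86 and 9.31 in WT and between 7.44 and 7.98 in cKO tumors, a difference of −1.396 (SE 0.13, limma adjusted p = 0.0444). The groups did not overlap, and leaving out any 1 tumor gave a difference between −1.48 and −1.30. The adjusted call was lost without any WT tumor, cKO 2 or cKO 4, with adjusted p between 0.0582 and 0.211 in those fits. Of 23521 rows tested with limma, 2 passed an adjusted p of 0.05, or 0.0085%, Mmp14 among them. The scores of marker genes by tumor, given further on, show cKO 3 as the tumor with the lowest fibroblast score and cKO 4 as the one with the highest.

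Of the members 7 had a mean signal below 5, all but Snai2, Vim and Cdh11. No detection call was used here, so a level above background was not shown for those 7, Twist1 and Zeb1 included. No member of the transition set passed the adjusted threshold between cKO and WT tumors. The members' adjusted p from limma ran from 0.430 to 0.931, while 2 members, Snai2 and Cdh11, had an unadjusted p below 0.05. Both were lower in cKO, and over all rows 4.14% were lower at that level. Of the 10 members 9 had a lower mean in cKO, against 43.5% of all rows, and their median difference was −0.19, against 0.02 over all rows. In none of the 10 were the groups free of overlap, which was the case for 1.73% of all rows with cKO lower and for 5.42% in either direction. Since these are whole tumors, fewer cells that make a transcript and less of it per cell cannot be told apart. The counts moved with single tumors. Without cKO 4, 5 members had an unadjusted p below 0.05 (Snai2, Cdh11, Zeb1, Prrx1 and S100a4, named after their values were seen). Without WT 1 they were 3, namely Snai2, Cdh11 and S100a4. Without WT 2 Snai2 alone was left, and without WT 3, WT 4, cKO 2 or cKO 3 Cdh11 alone. Of all 23521 rows, 1921 were at that level without cKO 4, 1641 without WT 1 and 2659 without WT 2. With WT 3, WT 4, cKO 2 or cKO 3 left out they numbered between 1597 and 2773. The median difference was −0.10 without cKO 3 and −0.32 without cKO 4.

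**Figure D1:**
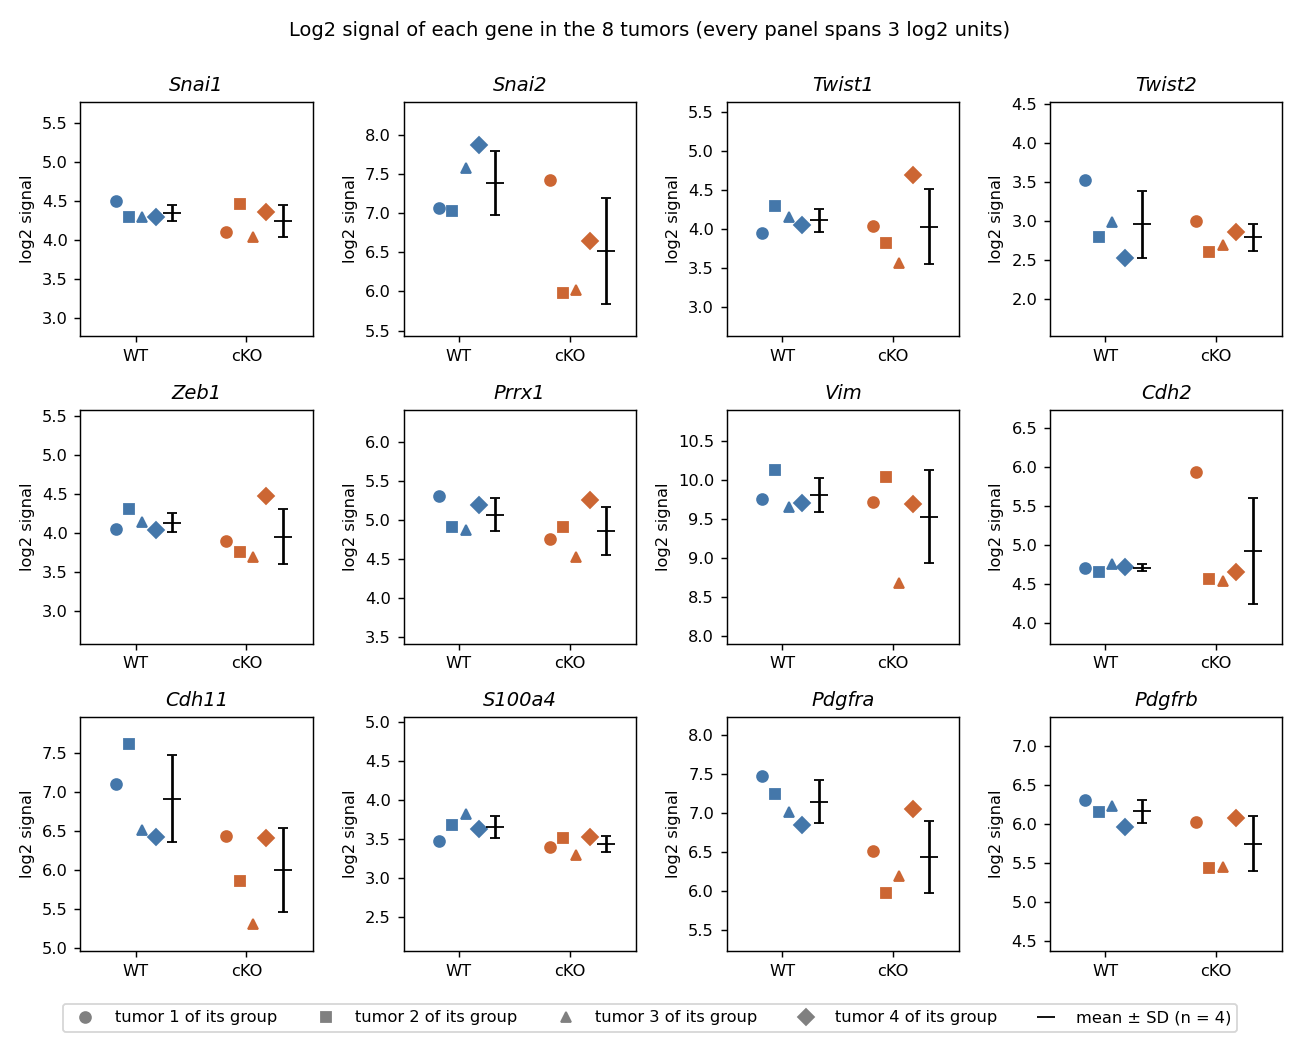
Log2 signal (vertical axis) of the 10 members and of Pdgfra and Pdgfrb in the 4 WT tumors (blue) and the 4 cKO tumors (orange), with a symbol for each tumor number and the mean ± SD in black. The groups overlap in every panel, Vim is lowest in cKO 3 at 8.67, and Cdh2 is highest in cKO 1 at 5.93.

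Snai2, also called Slug, is a zinc finger repressor of the Snail family that basal mammary cells express too. Its log2 signal was 7.06, 7.03, 7.58 and 7.88 in WT 1 to WT 4, and 7.43, 5.98, 6.02 and 6.65 in cKO 1 to cKO 4. The cKO tumors 2, 3 and 4 lay below all WT tumors, while cKO 1 lay among them. The WT mean was 7.39 ± 0.41 and the cKO mean 6.52 ± 0.68 (SD, each n = 4). The difference was −0.87 (SE 0.33, 95% confidence interval −1.61 to −0.12), so that cKO tumors had 54.8% of the WT signal. Limma gave an unadjusted p of 0.0273 and an adjusted p of 0.462, and the exact two-sided permutation p was 0.0857. Among the tumors on arrays 1 to 4 it was −0.34 and among those on arrays 5 to 8 −1.39, each a comparison of 2 WT with 2 cKO tumors. Snai2 varied more over the 8 tumors than 97.8% of all rows did.

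Snai1, or Snail, is the family member best known for repressing E-cadherin. It stood at 4.50, 4.29, 4.30 and 4.29 in WT 1 to WT 4 and at 4.10, 4.46, 4.04 and 4.36 in cKO 1 to cKO 4. Its values spanned 0.46 in all, and WT 1 and cKO 2 were the highest. The difference was −0.10 (SE 0.11, 95% confidence interval −0.36 to 0.15, limma adjusted p = 0.812). It was −0.04 without cKO 3, −0.05 without WT 1, −0.06 without cKO 1 and −0.18 without cKO 2. The SD over the 8 tumors was 0.16 for Snai1 and 0.70 for Snai2, and the pair correlated with r = −0.02.

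Zeb1, a zinc finger and homeobox repressor of epithelial genes, had log2 signals of 4.06, 4.31, 4.15 and 4.04 in WT 1 to WT 4. In cKO 1 to cKO 4 they were 3.90, 3.76, 3.70 and 4.48. The cKO tumors 1, 2 and 3 lay below every WT tumor and cKO 4 above every one. The difference over all tumors was −0.18 (SE 0.17, 95% confidence interval −0.56 to 0.20, limma adjusted p = 0.770). Without cKO 4 it was −0.35 with an adjusted p of 0.443, and without cKO 2 and without cKO 3 it was −0.11 and −0.09. On arrays 1 to 4 it was −0.35 and on arrays 5 to 8 −0.0063.

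Twist1, a basic helix-loop-helix factor of mesoderm and mesenchyme, had the same highest tumors as Zeb1, namely cKO 4, WT 2 and WT 3. It stood at 3.95, 4.31, 4.15 and 4.06 in WT 1 to WT 4 and at 4.04, 3.83, 3.57 and 4.69 in cKO 1 to cKO 4, with cKO 4 highest and cKO 3 lowest. The difference was −0.08 (SE 0.21, 95% confidence interval −0.57 to 0.40, limma adjusted p = 0.931). It was −0.30 without cKO 4 and 0.07 without cKO 3, so its sign rested on that tumor. Over the 8 tumors Twist1 and Zeb1 correlated with r = 0.95, given as a description of values from the same arrays.

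Twist2, the close relative of Twist1, ran otherwise. Its signals were 3.53, 2.79, 2.98 and 2.52 in WT 1 to WT 4 and 3.00, 2.60, 2.70 and 2.85 in cKO 1 to cKO 4, so that WT tumors held both the highest and the lowest value. The difference was −0.17 (SE 0.20, limma adjusted p = 0.830) and 0.03 without WT 1. Its correlation with Twist1 over the tumors was r = 0.07. These signals lay below the lowest array median in all 8 tumors.

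Prrx1, a homeobox factor of mesenchyme and fibroblasts, stood at 5.31, 4.92, 4.87 and 5.20 in WT 1 to WT 4. In cKO 1 to cKO 4 it stood at 4.76, 4.91, 4.53 and 5.26, with the highest value in WT 1 and the lowest in cKO 3. The difference was −0.21 (SE 0.16, 95% confidence interval −0.58 to 0.16, limma adjusted p = 0.718), and it was −0.10 without cKO 3, −0.13 without WT 1 and −0.34 without cKO 4. All 6 factors had a lower mean in cKO, with a median difference of −0.17 in log2 signal, and none passed.

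Among the markers, Cdh11 had the largest difference. Cadherin-11 is a type II cadherin of fibroblasts and other mesenchymal cells. Its log2 signal was 7.11, 7.62, 6.52 and 6.43 in WT 1 to WT 4 and 6.44, 5.86, 5.31 and 6.42 in cKO 1 to cKO 4. Of the cKO tumors 3 lay below every WT tumor, and cKO 1 lay 0.01 above WT 4, the lowest WT tumor. The WT mean was 6.92 ± 0.55 and the cKO mean 6.01 ± 0.54 (SD, each n = 4). The difference was −0.91 (SE 0.32, 95% confidence interval −1.64 to −0.19), so that cKO tumors had 53.1% of the WT signal. Limma gave an unadjusted p of 0.0190 and an adjusted p of 0.430, and the exact permutation p was 0.0571. On arrays 1 to 4 it was −1.21 and on arrays 5 to 8 −0.61.

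Vim encodes vimentin, the intermediate filament protein of mesenchymal cells, which leukocytes and endothelium make as well. It stood at 9.75, 10.13, 9.65 and 9.70 in WT 1 to WT 4 and at 9.72, 10.03, 8.67 and 9.69 in cKO 1 to cKO 4. The cKO tumors 1, 2 and 4 lay within the span of the WT tumors, and cKO 3 lay below it. The difference was −0.28 (SE 0.26, 95% confidence interval −0.88 to 0.32, limma adjusted p = 0.775) and 0.0066 without cKO 3. A second array row of Vim, at 5.07 in cKO 3 and between 5.93 and 6.55 in the others, showed the same low tumor, with a difference of −0.24 (limma adjusted p = 0.827).

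Cdh2, or N-cadherin, is the cadherin that replaces E-cadherin in the classical cadherin switch, and it was the only member with a higher mean in cKO. The 4 WT tumors lay within 0.10 of each other, at 4.71, 4.65, 4.75 and 4.72. The cKO tumors stood at 5.93, 4.56, 4.54 and 4.66, so that cKO 1 was 1.18 above the next tumor while cKO 2 and cKO 3 lay below the WT tumors and cKO 4 among them. The difference was 0.21 (SE 0.28, limma adjusted p = 0.844) and −0.12 without cKO 1. In another, dimmer row of Cdh2 cKO 1 was also the highest tumor, at 3.05 against 2.42 to 2.84. By a gap at least as wide, a size set by Cdh2 itself, cKO 1 was the highest tumor in 3 of 23521 rows, and each other tumor was so in 5 to 37 rows. The others, named after their values were seen, were Npr3, a clearance receptor for natriuretic peptides (6.35 against at most 4.91), and Hoxb3, a homeobox factor (4.61 against at most 3.36). In cKO 1 the fibroblast score was 0.19 and the pericyte score 0.07, both within the range of the other tumors.

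S100a4 encodes a small calcium-binding protein, also called fibroblast-specific protein, that leukocytes make too. It stood at 3.48, 3.68, 3.83 and 3.63 in WT 1 to WT 4 and at 3.41, 3.51, 3.30 and 3.53 in cKO 1 to cKO 4. The cKO tumors 1 and 3 lay below all WT tumors, and cKO 2 and cKO 4 lay just above WT 1. The difference was −0.22 (SE 0.10, 95% confidence interval −0.44 to 0.00058), with an unadjusted limma p of 0.0505, an adjusted p of 0.518 and an exact permutation p of 0.0857. Its signals lay close to the array medians.

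The next comparison set the members beside the stromal receptors of the same tumors. Pdgfra was 7.48, 7.25, 7.01 and 6.84 in WT 1 to WT 4 and 6.52, 5.98, 6.199 and 7.05 in cKO 1 to cKO 4. Pdgfrb was 6.30, 6.15, 6.24 and 5.97 in WT and 6.03, 5.44, 5.45 and 6.08 in cKO, in the same order. In both genes cKO 2 and cKO 3 were the lowest tumors and cKO 4 lay among the WT tumors. The difference was −0.71 for Pdgfra (SE 0.23, limma adjusted p = 0.384) and −0.42 for Pdgfrb (SE 0.17, limma adjusted p = 0.485), each with an exact permutation p of 0.0857. Neither passed, and both had an unadjusted p below 0.05.

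Each member was then expressed relative to the mean of both receptors in its tumor, as a log2 ratio, which shows unequal change and not which gene changed. The mean of the receptors was lower in cKO, with a difference of −0.56. Each ratio difference is the member's own difference minus that value, and a row with equal group means stands above 0 on this scale. A ratio higher in cKO, as for 8 of 10 members, is therefore not in itself a rise of the member. Of these only Cdh2 had a higher mean of its own in cKO, by 0.21. Of those 8 members 7 had a mean below 5. Snai2 (−0.31, exact permutation p = 0.457) and Cdh11 (−0.35, exact permutation p = 0.314), whose own differences were larger than that of the receptors, had the lower ratios. Twist1 relative to the receptors was −2.94, −2.40, −2.47 and −2.35 in WT 1 to WT 4 and −2.24, −1.88, −2.25 and −1.87 in cKO 1 to cKO 4, with no overlap between the groups. The difference was 0.48, with an exact permutation p of 0.0286, the smallest that 4 against 4 allows, and 0.171 after adjustment over the 10 members. It had an exact permutation p above 0.05 against Pdgfrb alone (0.143) and without cKO 2, cKO 4 or WT 1 (0.0571, 0.0571 and 0.0857). The signal of Twist1 itself differed by −0.08 (exact permutation p = 0.771). On the ratio scale, the share of all rows without overlap, or below an exact permutation p of 0.05, was not computed. Zeb1 differed by 0.38 (exact permutation p = 0.0571), Snai1 by 0.46 and Cdh2 by 0.78 (each with an exact permutation p of 0.0857). The other 4 had exact permutation p-values between 0.0857 and 0.514. No member passed after adjustment. The ratio of Vim was −0.01 without cKO 2, and that of Snai2 was 0.46 on arrays 1 to 4 and −1.07 on arrays 5 to 8.

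**Figure D2:**
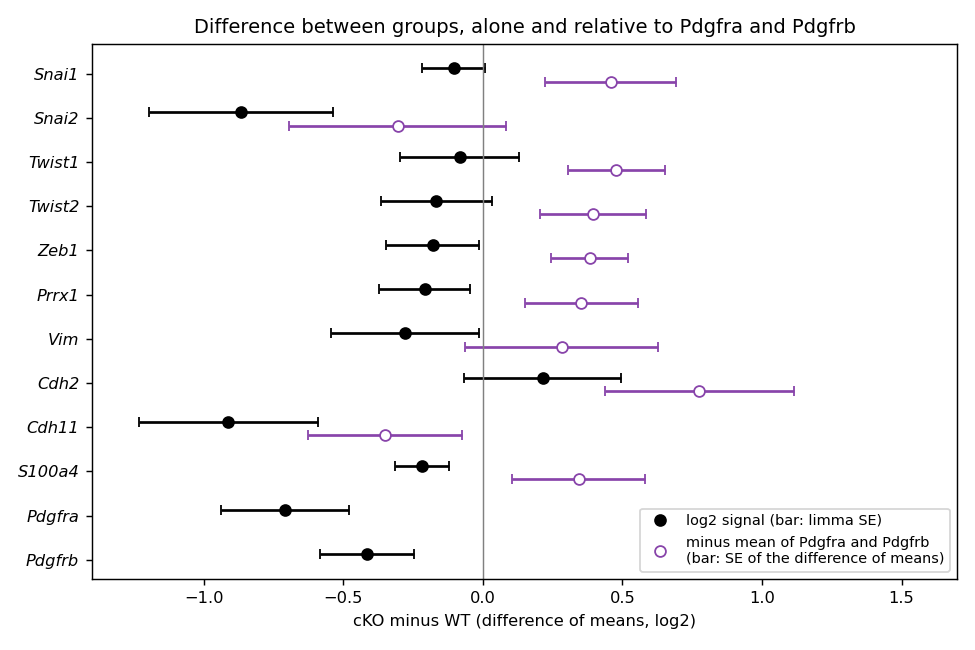
Difference between the group means, cKO minus WT on the log2 scale (horizontal axis), for each member and for Pdgfra and Pdgfrb; filled points are signals with limma's SE, and open points are the same after subtracting the mean of Pdgfra and Pdgfrb in each tumor, with the SE of the difference of means. Of the filled points 9 of 10 members lie below 0, while 8 of 10 open points lie above it. Each open point is moved up by the size of the receptors' own difference, and Snai2 and Cdh11 are below 0 on both scales.

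Over the 8 tumors, 20 relations of a member with a receptor were computed, and none passed after adjustment over the 20. Cdh11 followed Pdgfra most closely, with Pearson r = 0.84 (exact permutation p = 0.0083, adjusted 0.131) and Spearman rho = 0.79 (exact permutation p = 0.0279, adjusted 0.184). With Pdgfrb it had r = 0.83 (exact permutation p = 0.0131, adjusted 0.131) and rho = 0.83 (exact permutation p = 0.0154, adjusted 0.184). The 2 tumors farthest from the median of either receptor were cKO 2 and cKO 3, and without them r was 0.69 and 0.50 (n = 6, exact permutation p = 0.144 and 0.308). With values centred on their group mean, r was 0.69 and 0.68 (exact permutation p = 0.0868 and 0.111). Leaving out WT 2 gave r = 0.92 with Pdgfrb, the only relation that passed in any fit without 1 tumor (exact permutation, adjusted p = 0.0397).

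Zeb1 was the factor that followed Pdgfra most closely, with r = 0.77 (exact permutation p = 0.0254, adjusted 0.169) and rho = 0.81 (exact permutation p = 0.0218, adjusted 0.184). Without cKO 2 and cKO 3, r was 0.43 (exact permutation p = 0.392). Centred on the group mean it was 0.80 (exact permutation p = 0.0503, adjusted 0.336). With Pdgfrb Zeb1 had r = 0.73 (exact permutation p = 0.0429, adjusted 0.171), and 0.09 without cKO 2 and cKO 3. Prrx1 had r = 0.66 with Pdgfra, Twist2 0.61 and Twist1 0.58, with exact permutation p-values between 0.0804 and 0.126, all with an adjusted p of 0.242 or 0.246. With Pdgfrb, r was 0.56 for Prrx1, 0.64 for Twist2 and 0.61 for Twist1. Twist2 had rho = 0.76 with Pdgfrb (exact permutation p = 0.0368, adjusted 0.184). Its r with Pdgfrb was 0.80 without cKO 2 and cKO 3 (exact permutation p = 0.0417). Centred on the group mean, that r was 0.64 (exact permutation p = 0.0208, adjusted 0.336). The relation of Twist1 with Pdgfra was r = 0.07 without cKO 2 and cKO 3, the tumors with the lowest Pdgfra, whose removal also narrows its range. Centred on the group mean it was 0.72 (exact permutation p = 0.125, adjusted 0.357), and with 1 tumor left out it lay between 0.43 and 0.80.

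Snai2 had r = 0.74 with Pdgfrb (exact permutation p = 0.0372, adjusted 0.171) and 0.56 with Pdgfra. Without cKO 2 and cKO 3, in which Snai2 and the receptors were all low, these turned to −0.32 and −0.49. Removing both also narrows the range of the receptors. Centred on the group mean, r was 0.54 and 0.15 (exact permutation p = 0.300 and 0.793). With 1 tumor left out, r with Pdgfrb lay between 0.61 and 0.87. Among the 6 tumors other than cKO 2 and cKO 3, cKO 1, WT 3 and WT 4 had the highest Snai2. Vim had r = 0.35 with Pdgfra and 0.42 with Pdgfrb, which turned to −0.22 and −0.44 without cKO 3. Snai1 had r = 0.39 with Pdgfra (exact permutation p = 0.334), and 0.95 without cKO 2, the tumor with the lowest Pdgfra and the second highest Snai1. S100a4 had r = 0.49 and 0.56. Cdh2 had r = −0.09 with Pdgfra (exact permutation p = 0.881), and 0.77 without cKO 1.

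**Figure D3:**
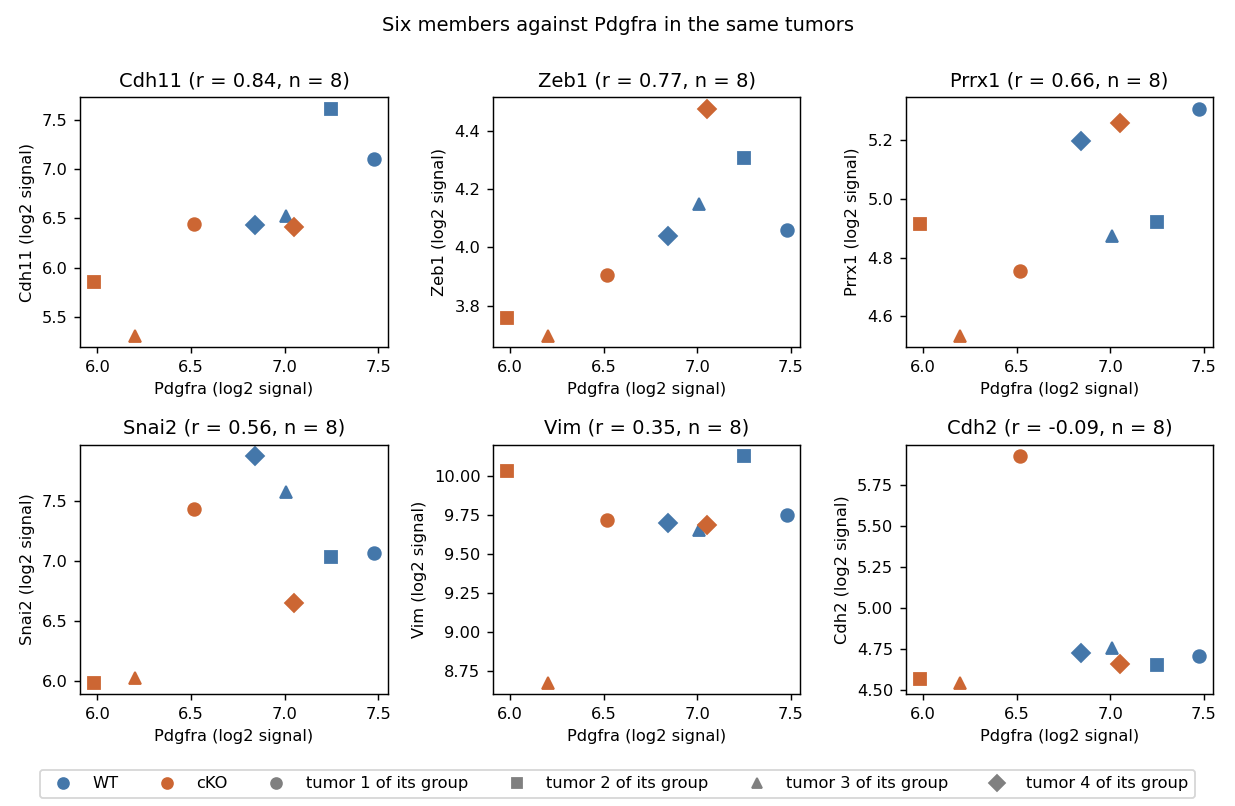
Log2 signal of 6 members (vertical axis) against that of Pdgfra (horizontal axis) in the 8 tumors, with WT in blue, cKO in orange, a symbol for each tumor number and Pearson r in each title. Cdh11 and Zeb1 run upward with Pdgfra (r = 0.84 and 0.77), and Vim and Cdh2 do not follow it (r = 0.35 and −0.09). In every panel cKO 2 and cKO 3 lie lowest on the Pdgfra axis, though not always on the member's, as Vim in cKO 2 is second highest.

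Genes most like a member in their pattern over the 8 tumors were taken from 10186 rows with a mean of at least 5, as a description of these arrays. For Snai2 they were Nqo2, Zfp366 and Mocs1, with r between 0.96 and 0.97. For Cdh11 they were Kremen1, Gamt and Mfap4, the last a microfibril protein, with r between 0.94 and 0.96. For Vim they were B3galt6, Gng11 and Gnb1, each with r = 0.95. The other members had a mean below 5 and were not searched.

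Other genes of the transition were counted in lists. Over all rows 43.5% had a lower mean in cKO, and 9.68% had an unadjusted limma p below 0.05 in either direction. Of 12 other factors 10 were measured, 7 of them higher and 3 lower in cKO, with a median of 0.04 and none at that level. Snai3 stood at 0.06, Prrx2 at 0.01, Foxc2 at 0.07 and Foxq1 at 0.02. Of 10 epithelial factors that hold the epithelial state, 7 were lower, with a median of −0.09. Grhl2, which maintains E-cadherin, stood at 0.21, the zinc finger repressors Ovol1 and Ovol2 at −0.09 and −0.10, and the splicing factor Esrp1 at 0.10. The only one with an unadjusted p below 0.05, named after its value was seen, was Grhl3 at −0.86 (limma adjusted p = 0.416).

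The epithelial genes that such factors repress were 16 in number, of which 13 were lower and 3 higher in cKO, with a median of −0.11. E-cadherin (Cdh1) had a WT mean of 10.6 ± 0.22 and a cKO mean of 10.4 ± 0.09 (SD, each n = 4), a difference of −0.21 (SE 0.11, limma adjusted p = 0.600). Epcam, an adhesion molecule with 2 motifs in the promoter shown above, stood at −0.06 (SE 0.08), and the claudin Cldn7 and the tight junction gene Ocln at −0.08 and −0.01. Crb3, named because its promoter with 3 motifs is shown, stood at 0.06 (SE 0.08). None passed, and those at an unadjusted p below 0.05, named after their values were seen, were the keratin Krt19 (−1.15) and plakoglobin, Jup (−0.21).

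Of 14 other mesenchymal markers 13 were measured and 12 were lower, with a median of −0.39. Fibronectin (Fn1) stood at −0.39, Sparc at −0.54, the receptor Axl at −0.11 and Cd44 at −0.02. Their score, the mean over genes of a tumor's log2 signal minus the gene's mean over the 8 tumors, ran from 0.16 to 0.36 in WT and from −1.12 in cKO 3 to 0.19 in cKO 4. Lox, which crosslinks collagen, and Col1a1 had an unadjusted p below 0.05 and were named after their values were seen (−1.47 and −1.36, limma adjusted p = 0.437 and 0.315). The groups did not overlap for either, nor for Tnc, also named after its value was seen.

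Of 10 genes of TGF-beta signalling, an inducer of the transition, none passed, and 3 had an unadjusted p below 0.05. The ligand Tgfb1 was lower by −0.49 (limma adjusted p = 0.256) and the ligand Tgfb2 higher by 0.58 (limma adjusted p = 0.407), with no overlap between the groups in either. Tgfb3 and the receptor Tgfbr1 stood at −0.07 and 0.02. The receptor Tgfbr2, named after its value was seen, stood at −0.36, also with no overlap. Over all rows 5.42% had no overlap between the groups in either direction. Of 10 corepressors that Snail and Zeb proteins recruit, 9 were higher in cKO, with a median of 0.09. The demethylase Kdm1a stood at 0.04, the deacetylase Hdac1 at 0.05, Hdac2 at 0.30 (limma adjusted p = 0.347) and the scaffold Rcor1 at −0.04. Ezh2, the histone methyltransferase of Polycomb, had an unadjusted p below 0.05, as had Hdac2, and was named after its value was seen (0.61, limma adjusted p = 0.142). The groups did not overlap for Hdac2 or Ezh2. Of 7 measured genes that set the turnover of Snail protein none had an unadjusted p below 0.05, with Gsk3b, Btrc, Fbxl14 and Fbxl5 at −0.05, −0.02, −0.21 and −0.04.

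The relatives of the markers were compared too. Of 10 other cadherins, E-cadherin included, 7 were lower. P-cadherin (Cdh3), of basal epithelium, stood at −0.66 (limma adjusted p = 0.509) and was the only one with an unadjusted p below 0.05. The endothelial Cdh5 stood at −0.33 and Cdh6 at −0.21. Of 12 other S100 genes 10 were lower, none with an unadjusted p below 0.05. S100a6 stood at −0.91 (SE 0.56), S100a10 at −0.24, S100a11 at −0.17 and S100a8 at 0.21. Of 5 other intermediate filament genes, desmin (Des) stood at −0.65, Nes at −0.30, Gfap at 0.27 and Prph at 0.08, again with none at that level.

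Markers of other cells that a tumor holds are given next, and their part in the members' differences was not tested. All 10 fibroblast markers had a lower mean in cKO, against 43.5% of all rows, with a median of −0.81. Of these 3 had an unadjusted p below 0.05 and a lower mean in cKO, against 4.14% of all rows. They were Pdgfra, Col1a2 (−1.27) and, named after its value was seen, Postn (−1.26), with no overlap between the groups for Postn. Dcn stood at −1.04 and Lum at −0.92. The fibroblast score was 0.36, 0.50, 0.47 and 0.01 in WT 1 to WT 4 and 0.19, −0.72, −1.60 and 0.79 in cKO 1 to cKO 4. The tumors cKO 2 and cKO 3, low in Cdh11, Zeb1, Snai2 and the receptors, were the lowest in fibroblast score. Not every member was low in cKO 2, where Vim, at 10.03, and Snai1, at 4.46, were each second highest of all tumors. Pdgfra is itself part of the fibroblast score, so its own agreement with it is partly built in. The tumor cKO 4, which had the highest Twist1 and Zeb1, had the highest score. Snai2 did not follow it there: in cKO 4 it stood at 6.65, below every WT tumor. Cdh11 in cKO 4, at 6.42, was nearly level with WT 4, the lowest WT tumor, at 6.43. It was also nearly level with cKO 1, the highest cKO tumor, at 6.44. WT 4, with the lowest score of the WT tumors, had the highest Snai2, at 7.88. Pericyte markers were lower in 7 of 8 genes, with a median of −0.26 and scores from 0.02 to 0.19 in WT and from −0.38 to 0.07 in cKO. Of these 4 had an unadjusted p below 0.05 and a lower mean in cKO, against 4.14% of all rows, and none passed. They were Pdgfrb, Notch3 (−0.48) and, named after their values were seen, Abcc9 (−0.43) and Myh11 (−0.28), with no overlap between the groups for Notch3 and Myh11. Rgs5 stood at −0.24 and Cspg4 at 0.05. Endothelial markers were lower in 8 of 8, against 43.5% of all rows. They had a median of −0.26 and scores from −0.12 to 0.30 in WT and from −0.53 to 0.26 in cKO. Pecam1 stood at −0.28, Vwf at −0.21 and Kdr at −0.20, with no overlap between the groups for Kdr. The 1 with an unadjusted p below 0.05, named after its value was seen, was Erg at −0.59 (limma adjusted p = 0.266), with no overlap between the groups.

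Basal epithelial markers, of the cells that express Snai2 in the normal gland, had a median of −0.12 over 7 measured genes, of which 5 were lower. Krt14 stood at −0.12, Trp63 at −0.21, Krt17 at 0.05 and Oxtr at 0.13. The only one with an unadjusted p below 0.05, named after its value was seen, was Mylk at −0.42 (limma adjusted p = 0.369). The basal score was highest in cKO 2, at 0.46, and lowest in cKO 3, at −0.53, and Snai2 was low in both of these tumors. Of 10 luminal markers, which define the labelled mammary tissue, 9 had a mean of at least 5. Krt8 had a WT mean of 10.4 ± 0.28 and a cKO mean of 10.2 ± 0.29 (SD, each n = 4). Foxa1 was the dim one, with a WT mean of 4.73 and a cKO mean of 3.96. Krt18 stood at −0.25, and 9 of 10 luminal markers were lower, with a median of −0.22. Of these 2 had an unadjusted p below 0.05 and a lower mean in cKO, against 4.14% of all rows. They were Krt19 (−1.15) and, named after its value was seen, Foxa1 (−0.77), and neither passed. Macrophage markers, of cells that make vimentin and S100a4, were higher in 8 of 10 genes, with a median of 0.39. Of these 6 had an unadjusted p below 0.05 and a higher mean in cKO, against 5.54% of all rows. Csf1r stood at 0.29, Adgre1 at 0.68, Cd68 at 0.53 and Aif1 at 0.60, and none passed. The groups did not overlap for Adgre1, Aif1 and, named after their values were seen, C1qa and Lyz2. The macrophage score ran from −0.48 to 0.07 in WT and from 0.04 to 0.35 in cKO. T cell markers had a median of 0.01 (Cd3e 0.19, Cd3g 0.01, Cd3d −0.22, Cd4 0.68), adipocyte markers one of 0.12 (Adipoq 0.22, Plin1 0.12, Cidec 0.19, Lep −0.05) and muscle markers one of −0.38. Among the last, Acta1 stood at −0.33, Ckm at −0.29, Myh4 at −1.02 and Tnnt3 at −0.46, with the highest score, 1.45, in WT 2.

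**Figure D4:**
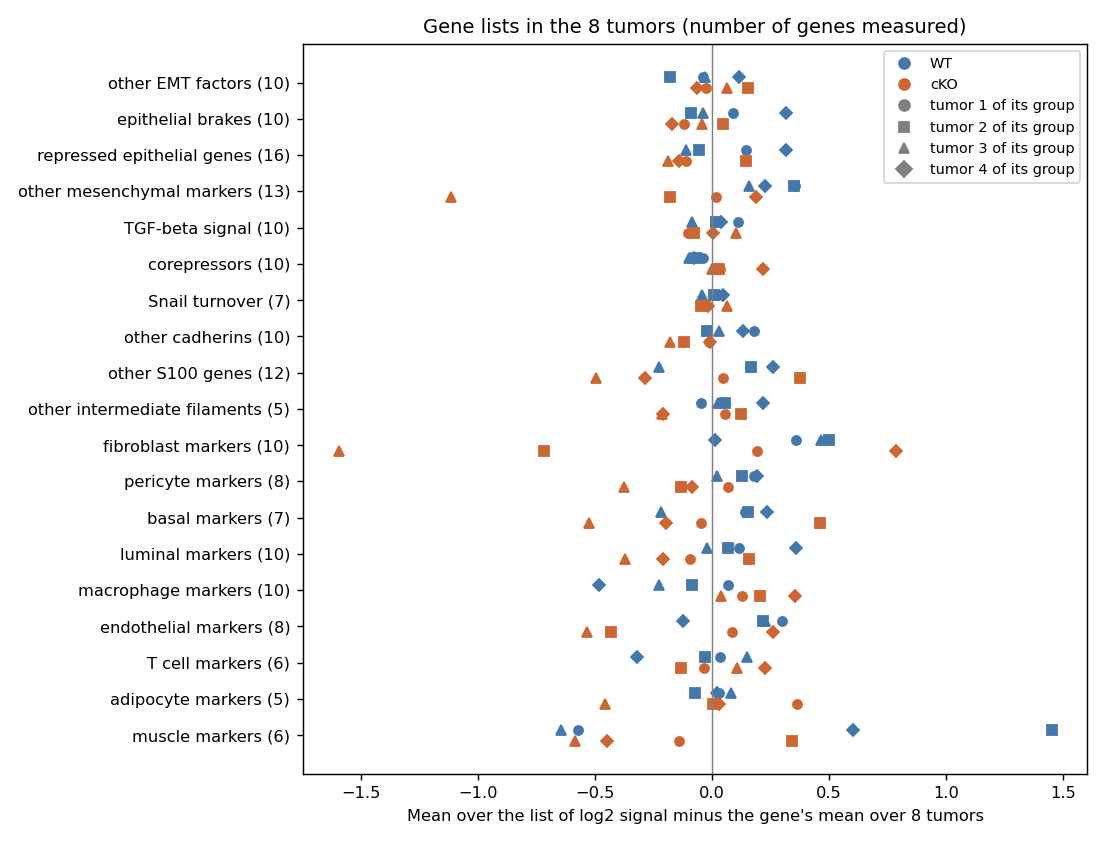
Score of each gene list (horizontal axis, mean over the list of log2 signal minus the gene's mean over the 8 tumors) in the 4 WT tumors (blue) and the 4 cKO tumors (orange), with a symbol for each tumor number and the number of genes measured in parentheses. The fibroblast score runs from −1.60 in cKO 3 to 0.79 in cKO 4, while the repressed epithelial genes stay between −0.19 and 0.31 in all 8 tumors.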

How the data were processed

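Per the submitters' processing notes the authors used RMA, a method of background correction, normalization and probe summary, and limma. For their versions and the genome build, nothing is given in the sources used here. The deposited values are log2 signals from 400 ng of RNA per tumor, between 0.853 and 12.9, and precision is limited by having 4 arrays per group. The table has 41345 rows, and 23521 carry 1 gene symbol, 1814 several and 16010 are unnamed here; symbols were set by gene identifier from the RefSeq table of GRCm38.p6 for 23328 rows. All rows with 1 symbol entered 1 fit of cKO minus WT by lmFit and eBayes of limma 3.58.1 (R 4.3.3), two-sided and without covariates, with 3.07 prior and 6 residual degrees of freedom, with Benjamini-Hochberg adjustment over all of them and a threshold of 0.05. Confidence intervals are at 95% on those degrees of freedom. Single values were tested by exact two-sided permutation over the 70 assignments of the 8 tumors, and correlations over all 40320 orders. The fit was tested on simulated data.

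The members and lists were chosen with earlier results of these data known. Named genes are the members, Pdgfra, Pdgfrb, Mmp14, the first 4 measured genes of each list in its written order, and, for members with a mean of at least 5, the 3 genes with the highest r; others are said to be named after their values were seen. Promoters are RefSeq's, with none used for Snai2, Cdh11, Cdh2 and Zeb1. Alternatives were another quantile normalization, a shift to 1 median, a filter on dim rows, a variance trend, blocks by replicate and array number, other rows, other reference genes, centring and leaving out each tumor.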

Additional observations from a re-analysis of the deposited data

Results flagged for a closer look

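Cdh2 in cKO 1, at 5.93, stood apart from the other 3 cKO tumors, with a gap to the nearest of them of 0.916 of the group's range, above Dixon's critical value for 4 samples. Snai1 in WT 1, at 4.50, stood apart from the other 3 WT tumors, with a gap of 0.961 of the range, though those 3 lay within 0.01 of each other. In all, 24 sets of 4 tumors were examined in this way for the members and both receptors, and chance marks about 1 in 20 such sets.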

How the results depend on the processing

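The 10 members kept an adjusted p above 0.05 under every alternative run. With only rows of a mean of at least 5 tested, 3 members were left, all lower in cKO, with a median of −0.87. Of the 10186 rows in that fit, 1354 had an unadjusted limma p below 0.05. The count of rows past the adjusted threshold, 2, was 0 with the replicate block, 1 with arrays 1 to 4 and 5 to 8 as a block, and between 0 and 3 with 1 tumor left out (0 without any WT tumor or cKO 4, 1 without cKO 2, 3 without cKO 3). Mmp14, 1 of the 2, had an adjusted p of 0.353 with the replicate block and 0.0708 with the arrays as a block. The replicate numbers did not pair the tumors (r of same-numbered deviations from −0.24 to 0.29), and the block changed no member's call. Twist1 relative to the receptors had p = 0.125 with the block, in an exact sign-flip test, the smallest that 4 pairs allow. Members with an unadjusted p below 0.05 numbered between 1 and 5 with 1 tumor left out, and all rows at that level between 1597 and 2773. Members below an exact permutation p of 0.05 relative to the receptors, 1 in the main setting, were 3 after quantile normalization, 2 against Pdgfra alone, 0 against Pdgfrb alone and between 0 and 2 with 1 tumor left out, with 2 without cKO 1 and 0 without cKO 2 or WT 1. For these ratios no share of all rows was computed. Relations with the receptors past the adjusted threshold were between 0 and 1.

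Signs turned for 4 member differences, none of them called. Leaving out 1 tumor gave ranges of −0.30 to 0.0705 for Twist1, −0.31 to 0.0251 for Twist2, −0.45 to 0.0066 for Vim and −0.12 to 0.34 for Cdh2. Within arrays 5 to 8 Twist1 was 0.0273, Twist2 0.0226 and Cdh2 −0.14, and the other row of Cdh2 gave −0.0404. Relative to the receptors, Snai2 was 0.46 within arrays 1 to 4, and Vim was −0.18 within arrays 5 to 8 and between −0.0134 and 0.48 with 1 tumor left out. Correlations turned for Snai1 with Pdgfrb (−0.18 to 0.80), Vim with Pdgfra (−0.22 to 0.76), Vim with Pdgfrb (−0.44 to 0.87) and Cdh2 with Pdgfra (−0.30 to 0.77), the ranges with 1 tumor left out. Centred on the group mean, r was 0.14 for Cdh2 with Pdgfra and −0.0567 for S100a4 with Pdgfra. The causes were not tested.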
